A study of Homo sapiens with 48 samples.

Results

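CCL2, CCL5, CCL20, CCL28, CXCL9, CXCL10, CXCL11, CXCL16 and CX3CL1 are 9 chemokine genes named as NF-κB responsive, out of 20033 protein-coding genes on chromosomes 1 to 22, X and Y. The study's lists of TNFα-specific and common genes, drawn from RNA-seq, hold none of these 9. Each was examined over its annotated gene body plus 50 kb on either side, and every region that a peak list called inside that window was counted. The cells were L3.6pl, a human pancreatic ductal adenocarcinoma line, and the assay was ChIP-seq, which reads the DNA bound by a protein or carrying a histone mark. RELA, RELB and the active-chromatin mark H3K27ac were profiled after Vehicle (PBS, its duration not given in the labels), after TNFα for 30 min or 6 h, and after TWEAK for 30 min or 6 h. FOSL1, an AP-1 subunit, was profiled in Vehicle alone. The 48 samples form 16 groups of 3 replicates, and the authors deposited 1 list of pooled replicates per group. No spread between replicates can therefore be given, and every value below describes 1 list.

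Chemokines are small secreted or membrane-anchored proteins that draw leukocytes along a gradient through G protein-coupled receptors. NF-κB dimers containing RELA act in the canonical pathway that TNFα triggers within minutes, whereas RELB is the partner of p52 in the slower noncanonical pathway that TWEAK activates. CCL2 attracts monocytes, CCL5 attracts T cells and monocytes, CCL20 and CCL28 are ligands made by epithelia, CXCL9, CXCL10 and CXCL11 are interferon-inducible ligands of CXCR3, and CXCL16 and CX3CL1 are made as membrane-bound forms.

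The RELA regions in these windows were short enough to show as sequence. The strongest RELA or RELB site of each gene other than CCL28 is printed below, since these are the letters under the summits on which the results turn. Each run is the plus strand of hg38, 5′ to 3′, centred on the summit, and capitals mark matches to the NF-κB consensus on either strand. A run of capitals longer than 10 letters holds overlapping matches. Sites are named by gene and by the distance in bp from the MANE Select transcription start site to the summit, negative when upstream. In the CCL20 run, 23 transcribed bases at the right-hand end were left out. The CXCL10 site also lies in the windows of CXCL9 and CXCL11, where it is the strongest, and is printed once.
CCL2 −2612, chr17:34252613-34252733: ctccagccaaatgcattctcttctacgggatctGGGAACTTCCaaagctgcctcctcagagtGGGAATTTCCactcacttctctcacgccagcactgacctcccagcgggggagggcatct
CCL5 −9899, chr17:35890199-35890319: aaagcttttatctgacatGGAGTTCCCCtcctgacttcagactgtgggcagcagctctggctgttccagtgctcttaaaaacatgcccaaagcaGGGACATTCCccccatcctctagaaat
CXCL10 −134, chr4:76023571-76023691: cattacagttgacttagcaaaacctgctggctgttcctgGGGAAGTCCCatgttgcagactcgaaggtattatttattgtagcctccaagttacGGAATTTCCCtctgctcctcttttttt
CCL20 −58, chr2:227813724-227813821: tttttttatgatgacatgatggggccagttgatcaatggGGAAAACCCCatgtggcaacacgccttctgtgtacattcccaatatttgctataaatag
CX3CL1 +16125, chr16:57388555-57388675: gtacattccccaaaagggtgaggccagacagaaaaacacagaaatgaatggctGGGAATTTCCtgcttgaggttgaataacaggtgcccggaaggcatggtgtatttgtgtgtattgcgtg
CXCL16 +1359, chr17:4738509-4738629: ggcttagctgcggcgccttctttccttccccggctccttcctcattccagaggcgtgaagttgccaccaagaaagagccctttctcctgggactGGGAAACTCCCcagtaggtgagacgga

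All 6 of these summit runs hold at least 1 consensus match, and the CCL2, CCL5 and CXCL10 runs hold 2 that do not overlap.

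The RELA and RELB lists held 2414 to 11266 regions each, with RELA at 30 min of TNFα the longest, FOSL1 held 58864, and the H3K27ac lists held 53895 to 61194. Read depth per sample is unknown from such lists, so fold enrichment (the authors' ratio of ChIP over input at a region) is ranked within a list and only set side by side between lists. The region names in the RELA list at 30 min of TNFα carry a mark of a single replicate, so whether it pools all 3 replicates is unsettled, and the counts of sites are also given without it. The background shares over RELA regions rest on that list too. In Vehicle, H3K27ac was called within 1 kb of the start sites of 5 of 5 epithelial marker genes (KRT8, KRT18, KRT19, EPCAM, CDH1) and of 2 of 5 markers of other cell types (COL1A1 and CD68, not PTPRC, CD3E or PECAM1).

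RELA was called near every one of the 9 genes after 30 min of TNFα, and near none of them in Vehicle. Over all protein-coding genes, 48.1% had a RELA region by the same rule at 30 min of TNFα and 5.05% in Vehicle. After 6 h of TNFα, 8 of 9 genes had a RELA region, against 26.8% of all genes, and CXCL16 was the gene without one. After TWEAK, RELA was called near 1 gene at 30 min, CCL28 (7.58% of all genes), and near 0 genes at 6 h (5.12%). RELB was called near CCL20 and CCL28 after 6 h of TWEAK (2 of 9 genes, against 13.6%). RELB was called near 0 of 9 genes in Vehicle (3.06% of all genes), after TNFα for 30 min (1.59%) or 6 h (3.87%), and after TWEAK for 30 min (1.41%). With so few genes and such low background shares, the counts of 0 and 1 lie near what all genes show. No region near these genes overlapped a Vehicle region of the same antibody, so the same counts hold for regions not called in Vehicle. The matching background shares for RELA were 46.9% (TNFα 30 min), 24.4% (TNFα 6 h), 4.22% (TWEAK 30 min) and 2.17% (TWEAK 6 h). For RELB they were 0.454%, 2.15%, 0.409% and 11.8% in the same order. The 3 genes CXCL9, CXCL10 and CXCL11 share their sites, so the 9 genes are not 9 separate observations.

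**Figure D1:**
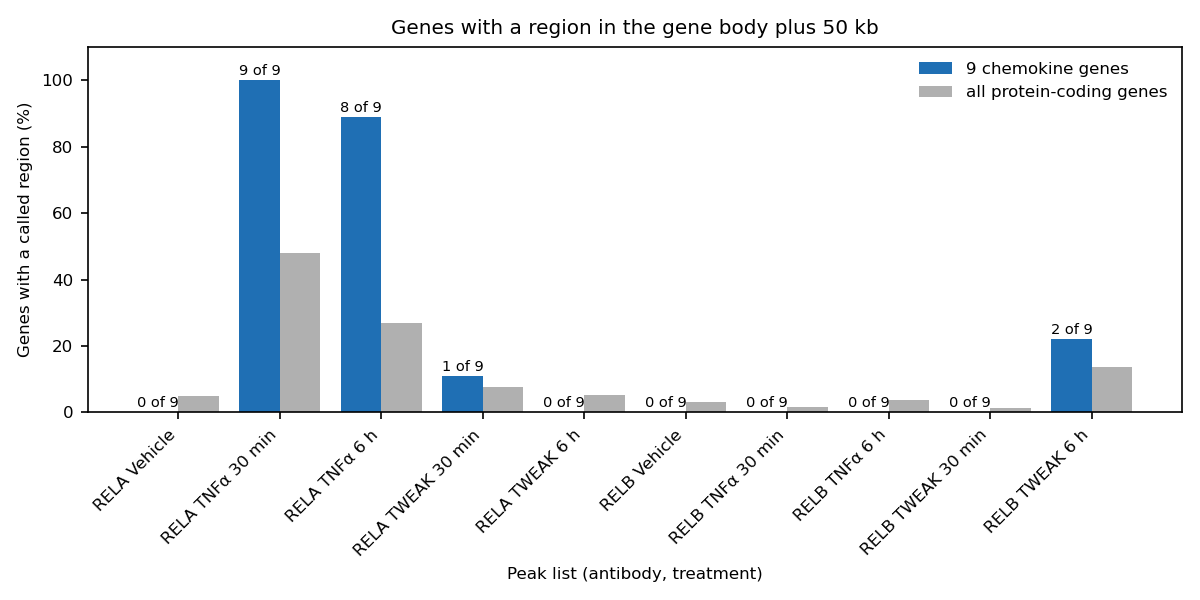
Share of genes (y axis, %) with at least 1 called region in the gene body plus 50 kb, for each RELA and RELB list (x axis), with blue bars for the 9 chemokine genes and grey bars for all 20033 protein-coding genes. The blue bar stands at 9 of 9 genes for RELA at TNFα 30 min and at 8 of 9 at TNFα 6 h, where the grey bars stand at 48.1% and 26.8%; there is 1 list per bar, so no error bars are drawn.

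Regions that overlapped between lists merged into 12 distinct sites. All 12 were called for RELA at 30 min of TNFα, 8 of them again at 6 h, and none in Vehicle. Among all 11266 RELA regions at 30 min of TNFα, 45.2% overlapped the 6 h list and 19.3% the Vehicle list. Many of those regions lie in tandem repeats, which hold 1 of the 12 sites. Among the 8308 regions outside them the shares were 35.3% and 4.32%. Counts out of 12 below still include that site. Leaving it out left 11 sites, of which 4 had H3K27ac in Vehicle and 7 gained it at 30 min of TNFα. FOSL1 lay at 3 of those 11 and an NF-κB consensus match at 10. For 11 of the 12 sites the nearest protein-coding start was that of one of the 9 genes, and 9 of the 12 lay upstream of it. At 30 min the median fold enrichment of the 12 sites was 10.9, where the median of the whole list was 5.93, and 6 of the 12 ranked in the strongest 10% of the list. Without the list at 30 min of TNFα, 9 sites remained.

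**Figure D2:**
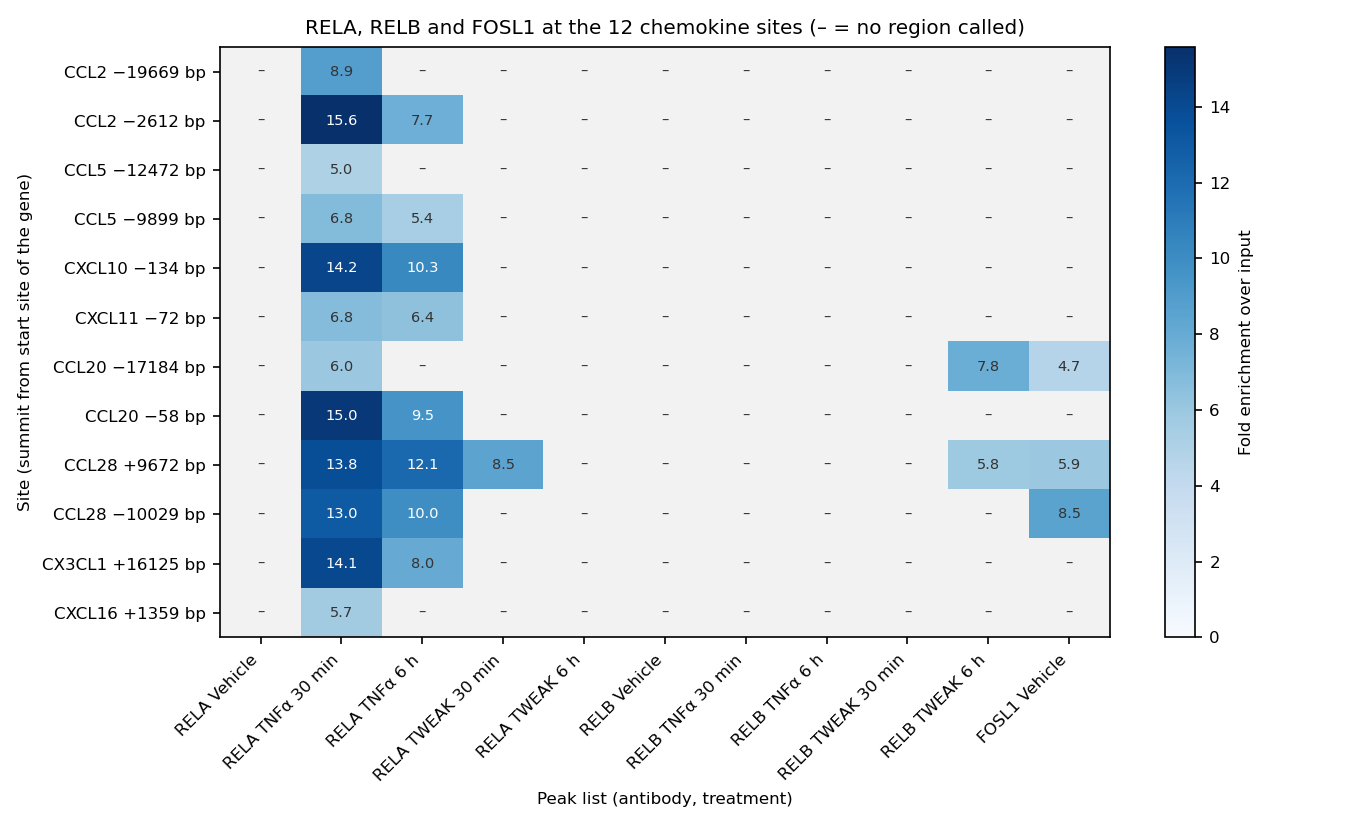
Fold enrichment over input (colour and printed value) of the 12 sites (rows, named by gene and distance of the summit from its start site) in the 10 RELA and RELB lists and the FOSL1 list (columns), where a dash means that no region was called. The RELA column at TNFα 30 min is filled in all 12 rows and the one at TNFα 6 h in 8, while the TWEAK columns are filled only in rows of CCL20 and CCL28.

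CCL2, the monocyte chemoattractant, had the site with the highest fold enrichment of the group at 30 min of TNFα. At −2612 bp, between genes on chromosome 17 (summit 34252673), RELA fold enrichment was 15.6 at 30 min of TNFα, which ranked 419 of 11266, and 7.68 at 6 h, which ranked 1812 of 7294. No other RELA or RELB list called it. The printed run shows its pair of consensus matches, and the summit lay 6.5 bp from the centre of the nearer one. A weaker CCL2 site at −19669 bp (fold 8.88) was called at 30 min of TNFα only. By −log10 q at 30 min of TNFα, CCL2 −2612 (54.9) lay below CCL28 +9672 (62.2). At 6 h of TNFα, CCL28 +9672 also had the higher fold (12.1 against 7.68).

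CCL5, which attracts T cells and monocytes, had no region at its start site. Its stronger site lay 9899 bp upstream (chromosome 17, summit 35890259), with RELA fold 6.83 at 30 min of TNFα and 5.39 at 6 h. The other, at −12472 bp, had fold 5.01 and was called at 30 min only. Both are moderate for the list: the first ranked 4150 of 11266 and the second 7780.

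The CXCR3 ligands lie head to tail on chromosome 4, and their windows hold the same 2 sites. The site just upstream of CXCL10 (−134 bp, summit 76023631) had RELA fold 14.2 at 30 min of TNFα and 10.3 at 6 h, with summits 1 bp apart. The site at the CXCL11 start (−72 bp, summit 76036142) had 6.78 and 6.43. CXCL9 had no site at its own start: the nearer one lay 16122 bp upstream, at CXCL10, and the other 28633 bp upstream, at CXCL11. Both sites also fall inside the annotated body of ART3, outside its MANE Select transcript. By the nearest protein-coding start alone, 7 of the 9 genes kept a RELA region at 30 min of TNFα, since CXCL9 and CXCL16 lost theirs. The share of all genes by that rule was not computed.

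CCL20, a ligand of CCR6 made by epithelial cells, had a region at its start and another at a distance, and both were called for RELA at 30 min of TNFα but differed in their other lists. The start site (−58 bp, chromosome 2, summit 227813784) had RELA fold 15.0 at 30 min of TNFα and 9.53 at 6 h, and was in no RELA list of TWEAK and no RELB list. The distal site (−17184 bp, summit 227796658) had RELA fold 5.95 at 30 min of TNFα, was not called for RELA at 6 h, and had RELB fold 7.80 after 6 h of TWEAK. The RELA and RELB summits of the distal site were 207 bp apart inside 1 merged region. No NF-κB consensus match lay in the 200 bp around either of these summits, which says only that these letters are not in those windows. Its RELA region ranked 5592 of 11266 and its RELB region 1108 of 4052.

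CCL28, a mucosal chemokine that acts through CCR10, had the site with the most lists. In its intron 1 (+9672 bp, chromosome 5), RELA fold under TNFα was 13.8 at 30 min and 12.1 at 6 h. The same region had RELA fold 8.50 after 30 min of TWEAK and RELB fold 5.78 after 6 h of TWEAK. Under TWEAK, the RELA summit lay 62 bp and the RELB summit 61 bp from the summit under TNFα at 30 min. A second CCL28 site upstream (−10029 bp) had RELA folds of 13.0 (TNFα, 30 min) and 9.97 (TNFα, 6 h), and was in no RELA or RELB list of TWEAK. Only 1.12% of all RELA regions at 30 min of TNFα had the combination of lists seen at the intronic site.

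CX3CL1, the membrane-anchored ligand of CX3CR1, had a single site beyond its 3′ end (+16125 bp, chromosome 16, summit 57388615). With TNFα, RELA fold was 14.1 at 30 min and 8.03 at 6 h. It lay between genes and almost as close to the start of CCL17, another chemokine gene, at 16152 bp. It was also the only one of the 12 sites in sequence that matches itself when shifted (self-match 0.455, limit 0.4), against 26.3% of all RELA regions at 30 min of TNFα. Leaving such sequence out left 8 genes with a RELA region at 30 min of TNFα and 7 at 6 h, and the matching shares of all genes were not computed. CXCL16, the ligand of CXCR6, had 1 site. It lay in intron 2 (+1359 bp, chromosome 17, summit 4738569), had RELA fold 5.66 at 30 min of TNFα and was in no other RELA or RELB list. The start of ZMYND15 lay 1264 bp from it, nearer than that of CXCL16.

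**Figure D3:**
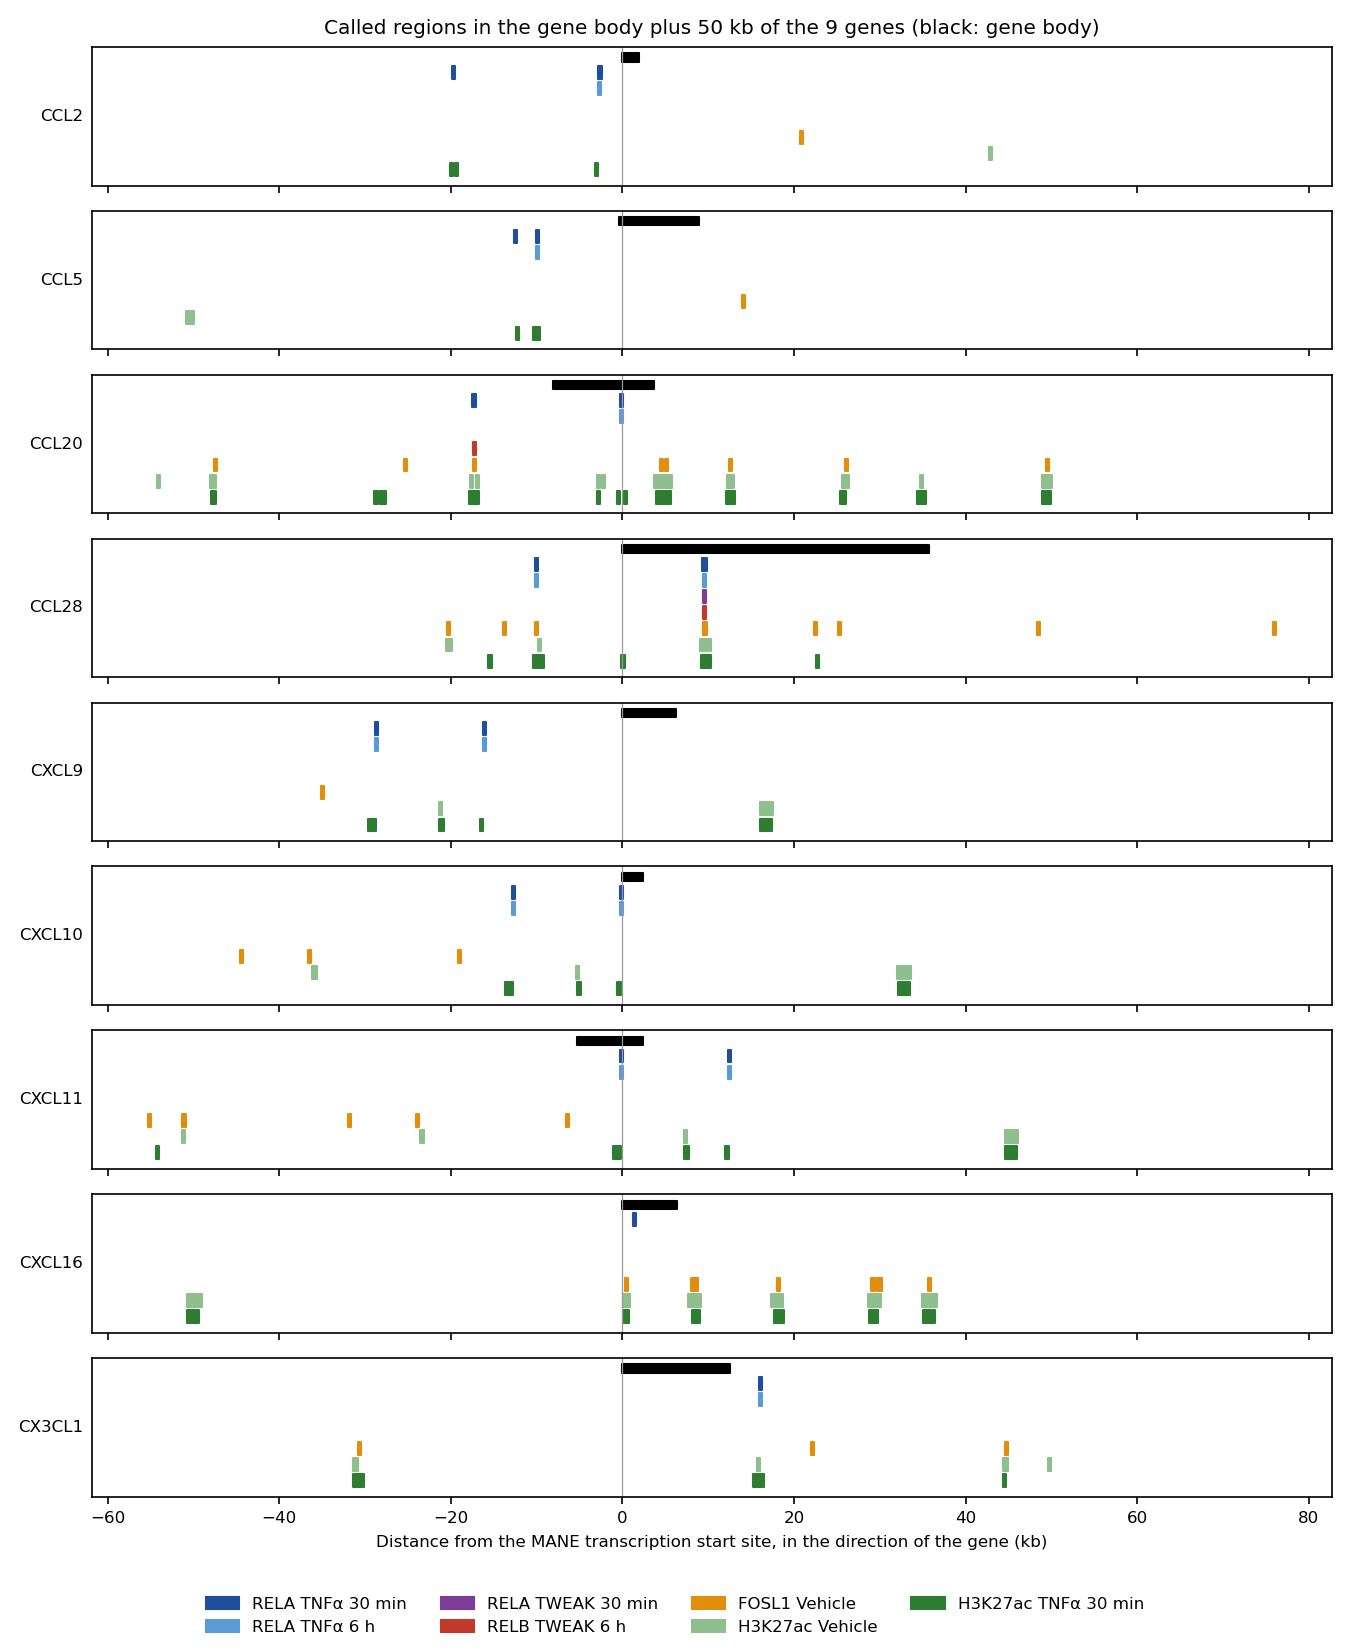
Called regions in the window of each gene by distance from its MANE Select start site (x axis, kb, in the direction of the gene), with 1 panel per gene, the gene body in black and 1 colour and row per list; narrow regions are drawn wider than they are so that they show. CCL20, CXCL10 and CXCL11 have a RELA region at the start site and a second one away from it. The RELA regions of CCL2, CCL5, CCL28, CXCL9 and CX3CL1 all lie away from the start site. FOSL1 regions number 8 at CCL20, 8 at CCL28 and 6 at CXCL16, but 1 each at CCL2, CCL5 and CXCL9. The windows of CCL2 and CCL5 also hold 1 Vehicle H3K27ac region each.

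Fold enrichment at 6 h of TNFα was below that at 30 min at all 8 sites called at both times. Over all 5093 RELA regions at 30 min that overlapped the 6 h list, it was lower at 6 h in 60.9%. Of these 5093, 2932 lay outside tandem repeats, and the share among those alone was not computed. The difference was widest at CCL2 −2612 (15.6 against 7.68) and narrowest at CXCL11 −72 (6.78 against 6.43). Folds come from lists of unknown depth and different lengths, so these differences are set side by side and are not a measured loss. As a share of its own list, the rank by fold was better at 6 h at 0 of the 8 sites called at both times. CCL2 −2612 lay in the top 3.72% at 30 min and the top 24.8% at 6 h. CCL28 +9672 lay in the top 5.95% and then the top 7.39%. Its plain ranks were 670 of 11266 and 539 of 7294, in lists of different length. Summits at the 2 times lay at most 41 bp apart. The 4 sites not called at 6 h were CCL2 −19669, CCL5 −12472, CCL20 −17184 and CXCL16 +1359, with folds of 5.01 to 8.88 at 30 min. The 12 sites included 7 called for RELA at both times of TNFα and in no other RELA or RELB list. CX3CL1 +16125, in tandem repeats, was 1 of the 7. This combination was seen in 14.3% of all RELA regions at 30 min of TNFα and 18.7% of those outside tandem repeats. Sites in the 30 min list alone made up 3 of the 12, against 49.2% and 62.7%.

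After TWEAK, 2 of the 12 sites were called. The CCL28 intron was called for RELA at 30 min of TWEAK, where 20.1% of all RELA regions at 30 min of TNFα were, and no site was called for RELA at 6 h of TWEAK, where 21% were. Outside tandem repeats these shares were 7.76% and 4.31%. RELB at 6 h of TWEAK covered 2 of the 12 sites, 27.3% of all RELA regions at 30 min of TNFα and 15.7% of those outside tandem repeats. Those 2 sites, CCL20 −17184 and CCL28 +9672, were also 2 of the 3 sites with FOSL1 in Vehicle. FOSL1 overlapped 58% of all RELA regions at 30 min of TNFα and 48.8% of those outside tandem repeats. The share of RELB regions with FOSL1 was not computed, and 2 sites are too few to relate RELB to FOSL1. Without the RELA list at 30 min of TNFα, only CCL28 +9672 was shared by RELA and RELB, since the distal CCL20 site had no other RELA list.

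H3K27ac was called within 500 bp of the summit at 5 of 12 sites in Vehicle, against 60.1% of all RELA regions at 30 min of TNFα (63.2% outside tandem repeats). At 30 min of TNFα it was called at 11 of 12, against 71.2% of all RELA regions (74.3% outside tandem repeats), and 7 of the 11 were gained, meaning called then and not in Vehicle. Over all RELA regions at 30 min of TNFα, 13.1% were gained at that time (12.1% outside tandem repeats). The 7 gains were at both CCL2 sites, both CCL5 sites, CCL20 −58, CXCL10 −134 and CXCL11 −72. Their fold enrichment was between 2.24 (CCL20 −58) and 3.64 (CCL5 −9899), in a list whose median was 3.05, and their ranks ran from the top 27.6% to the top 92.2% of it. At 6 h of TNFα 3 sites were gained (9.48% of all regions): CCL2 −2612 (fold 3.32), CCL5 −9899 (4.07) and CXCL11 −72 (2.74). After TWEAK 1 site was gained at 30 min (6.63% of all regions) and 1 at 6 h (4.54%), both times CCL5 −9899, with folds of 3.13 and 4.27. Outside tandem repeats the background shares were 8.61% at 6 h of TNFα, and 3.06% and 2.82% at the shorter and longer time of TWEAK. H3K27ac was also called within 1 kb of the CXCL11 start at 6 h of TWEAK (fold 2.68) and not in Vehicle, but lay outside the 500 bp limit.

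The sites that had H3K27ac in Vehicle were those of CCL28, CX3CL1 and CXCL16 and the distal one of CCL20. CCL28 +9672 carried the strongest mark of the 12 in every list, with folds of 5.34 in Vehicle, 5.67 and 5.04 after the shorter and longer TNFα treatment, and 5.65 and 5.19 after the shorter and longer TWEAK treatment. At CX3CL1 +16125 the region was 227 bp long in Vehicle (fold 3.01) and 1297 bp long at 30 min of TNFα (fold 3.86). CXCL16 +1359 had a region within 500 bp in Vehicle only (fold 3.22). H3K27ac was nonetheless called within 1 kb of the CXCL16 start in all 5 lists, with folds of 3.22 to 3.40, so that loss turns on the 500 bp limit. The distal CCL20 site had none at 30 min of TWEAK and the CX3CL1 site none at 6 h of TWEAK. When H3K27ac had to overlap the site itself, 3 sites had it in Vehicle and 3 were gained at 30 min of TNFα. Those gained were CCL5 −9899, CXCL10 −134 and CCL28 −10029, and the last counts as marked in Vehicle under the 500 bp limit. At the other sites gained under the 500 bp limit, H3K27ac lay beside the site and did not overlap. Under that limit and without the RELA list at 30 min of TNFα, 4 of 9 sites had H3K27ac in Vehicle. Of those 9, 5 were gained at 30 min of TNFα. Whole windows held 30 of the 59894 H3K27ac regions in Vehicle. After TNFα they held 36 of 53895 at the shorter and 39 of 61194 at the longer time, and after TWEAK 28 of 55821 and 28 of 58021.

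**Figure D4:**
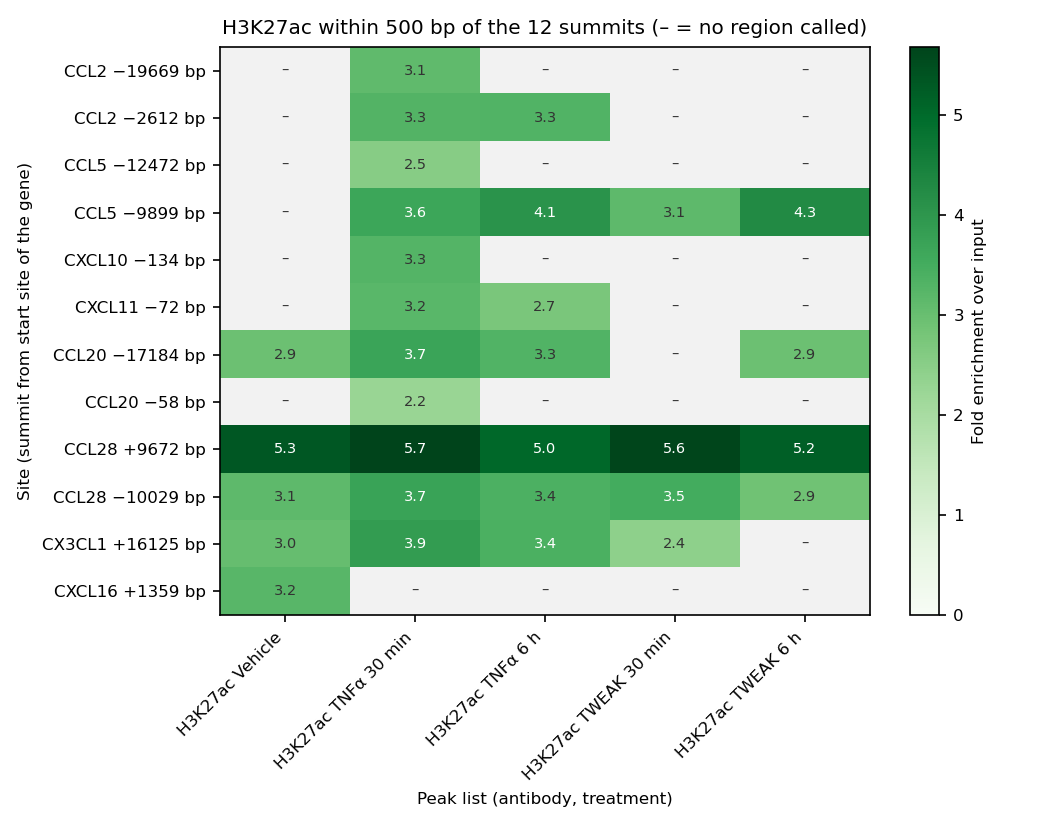
H3K27ac fold enrichment over input (colour and printed value) within 500 bp of each of the 12 summits (rows) in the 5 H3K27ac lists (columns), where a dash means that no region was called. The TNFα 30 min column is filled in 11 rows and the Vehicle column in 5, and the CCL28 intron has the highest value in every column.

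FOSL1 was called near all 9 genes in Vehicle, as it was near 90.5% of all protein-coding genes, and H3K27ac in Vehicle was likewise near all 9 against 91.5%, so neither count sets these genes apart. Of the sites themselves, 3 of 12 overlapped a FOSL1 region, against 58% of all RELA regions at 30 min of TNFα and 48.8% of those outside tandem repeats. These were CCL28 −10029 (FOSL1 fold 8.53), CCL28 +9672 (5.91) and CCL20 −17184 (4.71), with FOSL1 summits 59, 8 and 60 bp from the site summit. Without the RELA list at 30 min of TNFα they were 3 of 9 sites. At CXCL16 +1359 the nearest FOSL1 summit was 852 bp away. At the other 8 sites it was between 4607 bp (CCL20 −58) and 35512 bp (CCL2 −19669) away. The windows held 32 FOSL1 regions, 29 of them off every site. The strongest were in the windows of CXCL16 (fold 15.7), CCL20 (12.7) and CCL28 (10.4), with summits 18266, 49542 and 75936 bp downstream of the start in the same order.

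Matches to the NF-κB consensus lay in the 200 bp around the summit at 11 of 12 sites, against 37.5% of all RELA regions at 30 min of TNFα and 49.5% of those outside tandem repeats. Without the RELA list at 30 min of TNFα it was 8 of 9. Matches were counted on both strands and may overlap. The AP-1 motif TGANTCA was found at 1 of 12 sites, CXCL11 −72, against 14.4% of all regions (18.9% outside tandem repeats), and none of the 3 sites with FOSL1 held it. The interferon-response-like motif (GAAA, any 2 bases, GAAA) was found at CXCL10 −134 and CCL5 −9899, against 7.38% (3.03% outside tandem repeats). In RefSeq promoters (GRCh38.p14, 250 bases before to 50 after the start), 5 of the 9 genes had an entry: CCL20, CCL28, CXCL9, CXCL10 and CXCL11. The NF-κB consensus was in the promoters of CCL20, CXCL10 and CXCL11, against 11.3% of 35116 promoters. The CXCL9 promoter held only the interferon-response-like motif, which 3.57% of promoters hold and which CXCL10 also has. TGANTCA was in the CXCL11 promoter alone, against 7.71%. A match describes the letters and is not evidence that a factor sat there.

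Other genes of the chemokine system were counted from lists of ligands, receptors and enzymes. The list of ligands left out CXCL8 and the neutrophil chemokine genes beside it, so it does not hold all remaining ligands. The study shows CXCL8 as a locus bound by RELA after TNFα. RELA at 30 min of TNFα was near 10 of 26 other chemokine ligands, and 4 of those 10 (CCL7, CCL11, CCL17 and CCL22) had a site counted above in their window. Of the 22 ligands without such a site, 6 were called. At 6 h of TNFα 7 of 26 had a RELA region, and after 6 h of TWEAK 3 had a RELB region: CCL19 and CCL21, which share 1 (fold 8.28), and CCL26 (5.20). These 3 were the lymphoid chemokines CCL19 and CCL21 and the eosinophil attractant CCL26, all also called for RELA at both times of TNFα. Of the 9 receptors of the chemokines described here, 2 (CCR6 and CCR10) had a RELA region at 30 min of TNFα, and CCR10 also had 1 in Vehicle. Of the enzymes that shed or trim chemokines, ADAM10, ADAM17 and DPP4 were 3 of 3 at that time, with ADAM17 the strongest (fold 10.9). The atypical receptor ACKR2 was called and ACKR1 was not. Over all genes, the share with a RELA region was 48.1% at 30 min of TNFα, 26.8% at 6 h and 5.05% in Vehicle, and the share with a RELB region at 6 h of TWEAK was 13.6%.

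Genes with a like pattern were sought for the members with regions in at least 3 of the 10 RELA and RELB lists, as the smallest distance between best folds per list over those 10 lists. For CCL20 they were SLMAP (distance 0.732) and NBN (1.11). For CCL28 they were SAE1 and BBC3, which lie together and had the same values (1.91 each).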

How the data were processed

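ChIP-seq was measured in L3.6pl cells in 48 samples. Per the submitters' processing notes and the study's methods, the authors aligned to hg38 (Bowtie2 2.5.0), used SAMtools 1.18 and deepTools 3.3.2, and called peaks with MACS2 (version not given in the sources used here) on pooled replicates against input, giving 11 narrow and 5 broad lists. Beads carried Protein G for RELA and Protein A for the other antibodies. The fold enrichment deposited by the authors is a ratio over input, and the deposited −log10 q is the caller's significance. The other 32 columns (score and −log10 p) were not used. Depth is unknown, so no interval was given.

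Samples were grouped by their labels. From chromosomes 1 to 22, X and Y, regions were assigned to GENCODE 44 gene bodies plus 50 kb by an overlap of at least 1 bp, and merged into sites where they overlapped. FOSL1 needed 1 bp of overlap, H3K27ac a region within 500 bp of the summit, and motifs the 200 bp around it. With 1 list per group no test was run, and counts were set beside all protein-coding genes or all RELA regions at 30 min of TNFα. Tandem repeats were called from the self-match of 1000 bp at shifts of 1 to 400 bp, and the shares outside them were added after the data were seen. Python 3.11.15, numpy 2.4.6, pandas 2.3.3 and matplotlib 3.10.9 were used, and the functions were tested on simulated data. All 9 genes are named. Their strongest sites by fold enrichment are described, and sequences are the 121 bases around each. The sequence at the CCL28 site is not reported here. Alternatives covered windows, q, fold, strongest regions, repeats and distances. The genes and lists were chosen with earlier results of these data known.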

Additional observations from a re-analysis of the deposited data

How the results depend on the processing

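Of 177 values computed under other choices, 170 stayed within 1.5 times the count given above and 7 moved further. With the 2000 strongest regions of each list, 1 gene had a RELB region at 6 h of TWEAK, and 1 had one not called in Vehicle, in place of 2. With windows of 100 kb, 7 sites had FOSL1 and 10 had H3K27ac in Vehicle, among 18 sites. With H3K27ac required to overlap the site, 3 sites had it in Vehicle and 3 gained it at 30 min of TNFα, CCL28 −10029 among them. Without the RELA list at 30 min of TNFα, added after the data were seen, 1 site was shared by RELA and RELB. The cause of these changes was not tested. With windows of 10 kb, 8 genes had a RELA region at 30 min of TNFα and 7 at 6 h. Shares over all genes and over all RELA regions were not computed under these other choices, apart from the region shares outside tandem repeats. Such counts therefore cannot be set against a background by the same rule. No paired analysis was possible because each condition has 1 pooled list, and leaving out a replicate could not be done for the same reason. A region not called may be a matter of depth, which is unknown.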
